A study of Homo sapiens with 21 samples.

Results

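The genes described here are 9 human genes of zinc handling, taken by symbol: the metallothioneins MT1E, MT1F, MT1G, MT1M, MT1X and MT2A, the metal-responsive transcription factor MTF1, the zinc exporter SLC30A1 and the zinc importer SLC39A10. Of the 9 genes, 8 have a row in at least 1 of the 4 expression tables, which together hold 20970 genes, and MT1G was not analysed here. The FADU knockdown table, the FADU overexpression table and the mutant table each hold 7 of them, and the BFTC909 table holds these 7 and MT1M. The study asked how METTL4, a methyltransferase that places N6-methyladenine on DNA, takes part in the response of tumor cells to hypoxia. It used FADU, a human line from a head and neck cancer, and BFTC909, a human line from a cancer of the renal pelvis, in 21 RNA-seq libraries of total RNA. In each line, 2 libraries came from cells with scramble siRNA (Scr-si) at 18% O2 (normoxia), 2 from Scr-si cells at 1% O2 (hypoxia) and 2 from cells labelled METTL4-si at 1% O2, all for 18 h. A further 6 libraries came from FADU cells at 18% O2: 2 with the control vector, 2 with METTL4 overexpression (METTL4-OE) and 2 with overexpression of the long noncoding RNA RP11-390F4.3 (RP11-390F4.3-OE). The last 3 came from FADU cells at 1% O2: 1 library of CRISPR control cells and 1 from each of 2 clones whose METTL4 catalytic motif was mutated (METTL4-DPPW-mut). By the study's methods, plasmid-transfected lines are stable clones and each mutant line grew from a single cell, so a difference between such lines is also a difference between clones. The methods describe METTL4 knockdown by lentiviral short hairpin RNA, with antibiotic selection of stable clones. If the METTL4-si cells were made in this way, the same holds for them. Which columns held the RP11-390F4.3-OE cells was settled by elimination, since their names in the table match no label. The labels do not say whether the 2 libraries of a group came from separate cultures, so the p-values measure the spread between these libraries, which may be technical.

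Metallothioneins are small cysteine-rich proteins that bind zinc, copper and cadmium and buffer the free metal of a cell. When zinc rises in the cytosol, MTF1 binds metal response elements (MREs) in the promoters of metallothionein genes and of SLC30A1 and raises their transcription, so that more zinc is bound and more is moved out across the plasma membrane. SLC39 proteins such as SLC39A10 work the other way and bring zinc into the cytosol. Metallothionein genes are also known to respond to glucocorticoids, oxidative stress and low oxygen.

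In the GRCh37 annotation, the 6 metallothionein genes lie in a cluster of 75.6 kb on the long arm of chromosome 16, between 56642496 and 56718108, with MT2A (56642496 to 56643409, plus strand) at one end and MT1X (56716382 to 56718108, plus strand) at the other. MT1E (56659387 to 56661024, plus strand), MT1M and MT1F lie between them, as does MT1G, which is read from the minus strand. SLC30A1 spans 211744910 to 211752503 on the minus strand of chromosome 1, MTF1 spans 38275246 to 38325264 on the minus strand of the same chromosome, and SLC39A10 spans 196440701 to 196602426 on the plus strand of chromosome 2. A table of promoters from RefSeq in the build GRCh38.p14 holds 5 of the 9 genes: MT2A, MT1X, SLC30A1, MTF1 and SLC39A10, the last with 2 starts. The 250 bases before the transcript start of the 3 genes with an MRE match follow, 5′ to 3′ on the strand of the gene. They are given because the metallothioneins and SLC30A1 are known targets of 1 factor and did not move together in every comparison. Capitals mark each match to the MRE core, TGCACNC or TGCGCNC on either strand. The windows are chr16:56608334-56608583 (plus strand) for MT2A, chr16:56682220-56682469 (plus strand) for MT1X and chr1:211579162-211579411 (minus strand) for SLC30A1.
MT2A: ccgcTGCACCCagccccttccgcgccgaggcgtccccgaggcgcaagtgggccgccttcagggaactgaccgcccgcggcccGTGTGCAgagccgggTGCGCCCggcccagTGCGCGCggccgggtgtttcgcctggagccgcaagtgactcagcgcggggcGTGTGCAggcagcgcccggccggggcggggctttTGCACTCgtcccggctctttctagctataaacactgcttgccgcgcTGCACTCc
MT1X: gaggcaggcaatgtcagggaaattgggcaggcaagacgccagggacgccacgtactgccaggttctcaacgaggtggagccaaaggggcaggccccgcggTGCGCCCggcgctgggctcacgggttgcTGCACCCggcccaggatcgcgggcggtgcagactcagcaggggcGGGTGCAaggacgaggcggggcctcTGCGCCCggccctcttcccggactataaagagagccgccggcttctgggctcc
SLC30A1: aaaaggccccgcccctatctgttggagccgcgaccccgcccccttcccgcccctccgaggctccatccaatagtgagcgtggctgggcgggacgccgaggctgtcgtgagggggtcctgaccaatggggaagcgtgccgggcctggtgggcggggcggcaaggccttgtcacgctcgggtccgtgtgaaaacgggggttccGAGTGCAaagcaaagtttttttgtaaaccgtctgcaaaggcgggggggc

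MT2A had 7 MRE core matches in this window, 5 on the strand of the gene and 2 on the other strand, and MT1X had 4, of which 1 was on the other strand. SLC30A1 had 1 match, on the other strand, at -49 to -43 counted from the start. No match lay in the windows of MTF1 and SLC39A10, which says only that these letters are not there. Of 35116 promoter windows of the same length, 24.8% held at least 1 MRE core match, 0.370% held 4 or more and 0.0313% held 7 or more. The core of the hypoxia response element, ACGTG on either strand, was found 1 time in the MT1X window (-202 to -198, other strand), not in the other 5 windows, and in 18.5% of all promoter windows. None of the matches overlapped another. A match is a run of letters, and binding was not measured here.

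**Figure D1:**
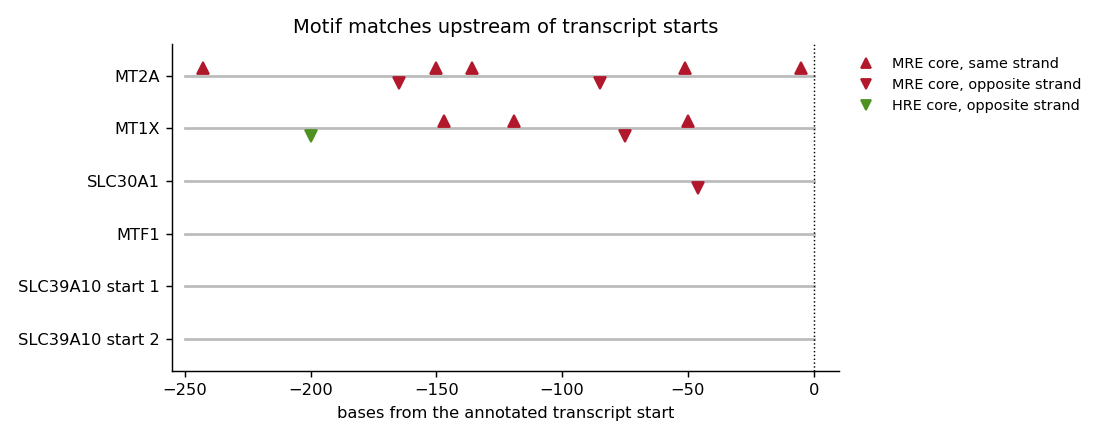
Matches to the MRE core (red) and the HRE core (green) in the 250 bases before 6 annotated transcript starts of 5 genes; the horizontal axis gives bases from the start, and triangles pointing up or down mark the strand of the gene or the other strand. MT2A carries 7 red marks, MT1X carries 4 and SLC30A1 carries 1.

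Expression values are CPM, the reads of a gene relative to the total counted for the library, scaled by the TMM method. In the mutant table this total includes reads placed on no single gene, so its values are on another scale. At a similar depth, 1 read was 0.0303 CPM in the CRISPR control and 0.0497 CPM in METTL4-OE replicate 1. Fold changes are on the log2(CPM + 1) scale, which understates changes of genes with low values. A gene was called higher or lower at a Benjamini-Hochberg adjusted p under 0.05 over all genes tested by limma and a difference of at least 1.3-fold. Where a count of 0 is given at an unadjusted p, the 1.3-fold limit still applied. In RNA from whole cultures, fewer cells of a type and less RNA per cell cannot be told apart. Libraries held 17.8M to 25.4M reads on genes. This gave 977 to 5639 reads for MT2A in a library of the 3 replicated tables, 30 to 114 reads for MT1X in FADU cells outside the mutant table, and 4 to 52 reads for MT1F anywhere, so values of MT1F, and those of MT1X and MT1M in BFTC909, carry large counting errors. The RNA of METTL4, the siRNA target, did not separate the labelled groups in FADU. It read 31.9 and 30.8 CPM in FADU normoxia, 26.6 and 25.3 in Scr-si hypoxia and 24.2 and 27.1 in the libraries labelled METTL4-si, and the last 2 groups overlapped. In BFTC909 METTL4 was 19.0 and 15.6 CPM with Scr-si in hypoxia and 14.4 and 12.2 in the libraries labelled METTL4-si (log2 fold change -0.36, SE 0.129, adjusted p = 0.0717). METTL4-OE cells had 158 and 139 CPM against 35.4 and 32.7 with the control vector. CA9, a carbonic anhydrase used as a marker of hypoxia, rose from 2.33 and 2.55 to 31.0 and 37.8 CPM in FADU and from 0.358 and 1.17 to 54.0 and 56.2 in BFTC909. It was lower in the hypoxic libraries labelled METTL4-si, at 1.87 and 2.22 CPM in FADU (log2 fold change -3.53) and 5.53 and 5.84 in BFTC909 (-3.07). In normoxic FADU it was 9.39 and 9.15 CPM in METTL4-OE and 13.6 and 13.2 in RP11-390F4.3-OE against 0.906 and 0.744 with the control vector. The marker of hypoxia thus moved in each of these comparisons, and its part in the results was not tested. RP11-390F4.3 was not analysed here, since its identifier was not in the annotation used.

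Of 6 squamous markers, all were present in the FADU tables. Their summed levels were 1918 to 3563 CPM in the knockdown and overexpression tables, and 1509 to 2218 CPM in the mutant table, which is on another scale. In the FADU knockdown table these sums were 1918 and 2138 CPM in the libraries labelled METTL4-si against 3112 to 3563 in the others, and in the overexpression table they were 2771 and 2683 in METTL4-OE and 2770.2 and 2600.02 in RP11-390F4.3-OE against 3427 and 3324 with the control vector. The 6 simple epithelial markers summed to 4331 and 3859 CPM in FADU normoxia and 2593 and 2640.3 in hypoxia, and to 2698 and 2603 in METTL4-OE and 3063 and 3055 in RP11-390F4.3-OE against 3843 and 3817 with the control vector. SERPINA1, the 1 hepatocyte marker of 4 in the overexpression table, was 15.5 and 14.01 CPM in RP11-390F4.3-OE against 4.89 to 5.68 in the other groups. The part of these shifts in the results was not tested. BFTC909 held 1 of 6 urothelial markers, PPARG, and 5 of 6 fibroblast markers, so its urothelial origin does not show in these markers. Both moved with the groups. PPARG was 28.2 and 26.0 CPM in normoxia, 10.9 and 10.7 in hypoxia and 22.2 and 20.4 with METTL4-si, and the fibroblast markers summed to 1019.5 and 1114 CPM, 4447 and 4652, and 2481 and 2680.4 in the same order. The simple epithelial markers summed to 84.4 and 82.5 CPM in normoxia and 21.2 and 21.4 in hypoxia. Their part in the BFTC909 results was not tested. In 4 libraries markers of another cell type were higher than in the replicate of the same group. The summed breast luminal markers (7 of 8 in the table) were 152 CPM in FADU normoxia replicate 1 and 617 in FADU METTL4-si replicate 1 against 26.8 to 37.8 in the other 4 FADU knockdown libraries, and TFF1 was at 0 in those 4. Fibroblast markers (2 of 6 in the table) summed to 25.6 and 116 CPM in the same 2 libraries, against 4.40 to 5.87 in the other 4. The simple epithelial markers summed to 4140 CPM in FADU METTL4-si replicate 1 and 2090 in replicate 2. In BFTC909 METTL4-si replicate 2, 3 of 6 simple epithelial markers summed to 1121 CPM against 21.2 to 84.4 in the other 5 libraries. In RP11-390F4.3-OE replicate 2, 5 of 8 breast luminal markers summed to 65.9 CPM against 22.9 to 40.9. Each result below that rests on these libraries is given without them where that changes its call, and their part in the results was not tested.

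Per kilobase of the canonical transcript, MT2A was the most abundant of the genes in both lines. In FADU normoxia its level was 252 ± 33.0 CPM per kb (SD, n = 2 throughout), followed by MT1E at 58.9 ± 5.07, SLC39A10 at 11.2 ± 0.134, SLC30A1 at 9.18 ± 0.413, MT1X at 6.38 ± 0.729, MTF1 at 5.997 ± 0.0114 and MT1F at 1.41 ± 0.358. MT1X and MTF1 did not differ beyond their spread in this order. In BFTC909 normoxia MT2A stood at 356 ± 3.33 CPM per kb. SLC30A1 at 31.5 ± 0.127, SLC39A10 at 31.4 ± 0.127 and MT1E at 31.2 ± 0.811 came next and did not differ beyond their spread. MTF1 at 4.81 ± 0.0613 was followed by MT1X at 1.24 ± 0.436, MT1M at 1.19 ± 0.0992 and MT1F at 0.619 ± 0.317. MT1X overlapped MT1M and MT1F within the SD, whereas MT1M and MT1F did not overlap each other. These levels rest on 14 and 9 reads of MT1X, 10 and 12 of MT1M and 8 and 4 of MT1F. An SD of 2 libraries need not cover the counting error of so few reads, so the order of the 3 genes is not settled. The tables were normalized separately, so levels were not tested between lines. Of the 14 other metallothionein genes and pseudogenes listed, the pseudogene MT1L had a row in BFTC909 and none was found in the other 3 tables.

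Metallothionein transcripts share short stretches with other genes, so some reads may be hard to place. Of all stretches of 50 bases in the canonical transcript, 51.0% of those in MT1X also occur in a transcript of another gene, and 33.0% of all MT1X stretches occur in the gene model ENSG00000259827, against 10.3% for MT1E, 11.1% for MT2A, 14.6% for MT1M and 6.12% for MT1F. At 100 bases the share was 22.0% for MT1X, all of it with ENSG00000259827. It was 0% for the other 4 as well as for SLC30A1, SLC39A10 and MTF1. Reads were 150 bases long and paired. In the mutant table, reads without a unique alignment stood in a row of their own, apart from the genes, with 2.94% to 3.74% of the total. For the other tables, how the counting treated such reads is not given in the sources used here. By sequence sharing, the value of MT1X is the least certain of these, while MT1F and MT1M rest on fewer reads.

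**Figure D2:**
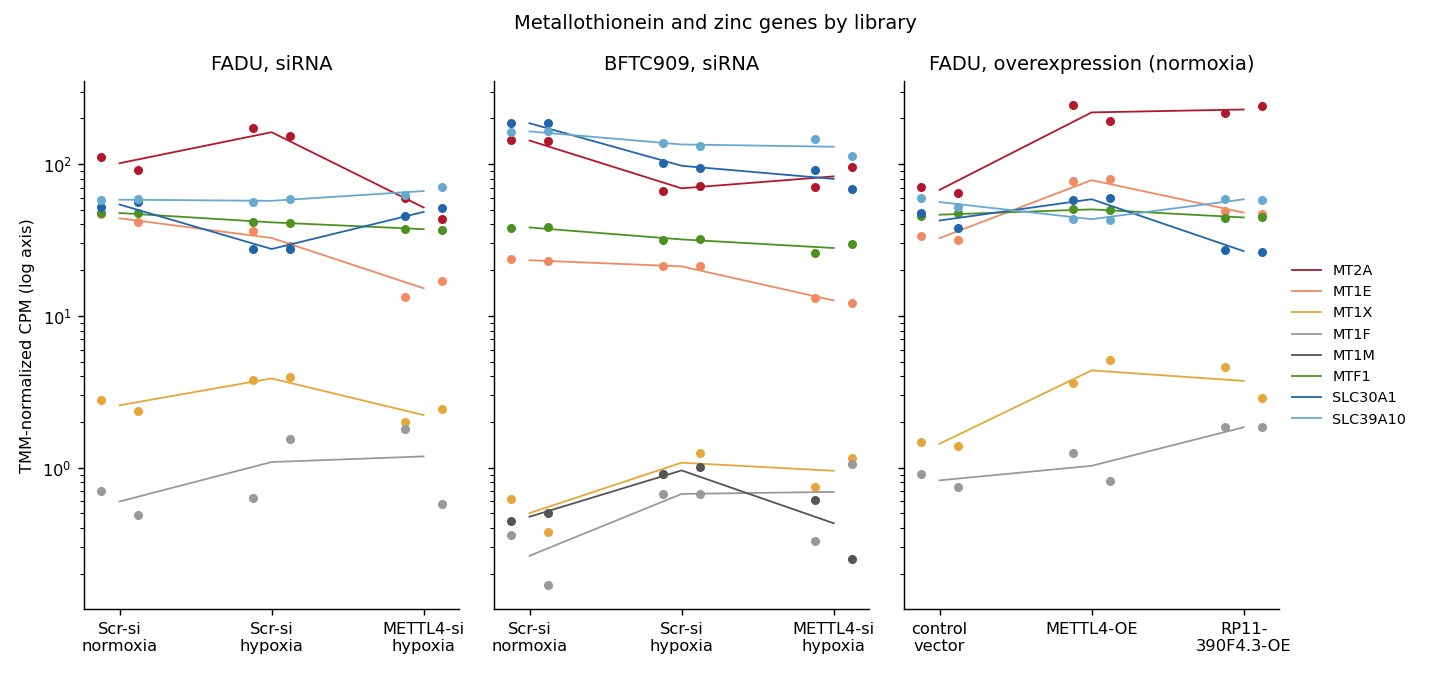
TMM-normalized CPM on a log axis for 8 genes in the 18 libraries of the 3 replicated tables; each point is a library and lines join the group means (n = 2). MT2A rises from 101 to 162 CPM between normoxia and hypoxia in FADU and falls from 143 to 69.2 in BFTC909.

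Hypoxia moved MT2A in opposite directions in the 2 lines and lowered SLC30A1 in both. In FADU, MT2A was 111 and 91.9 CPM in normoxia and 172 and 152 in hypoxia, and in BFTC909 it was 144 and 142 in normoxia and 66.9 and 71.5 in hypoxia. Neither pair of groups overlapped. The log2 fold change was 0.68 (SE 0.163, adjusted p = 0.0271 by limma) in FADU and -1.04 (SE 0.126, adjusted p = 0.000692 by limma) in BFTC909. The difference between the lines, tested as an interaction over 12 libraries, was 1.71 (SE 0.233, adjusted p = 0.000836 by limma), and 12.8% of 13595 genes were called for such a difference in this direction and 11% in the other. The rise in FADU was no longer called when any 1 of the 4 libraries compared was left out (log2 fold change 0.54 to 0.81, highest adjusted p 0.167), whereas the fall in BFTC909 and the difference between lines stayed called without any 1 library. Without the 4 libraries with raised markers of other cells, the rise in FADU was 0.81 and stayed called.

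SLC30A1, which carries zinc out of the cell, fell alike in both lines. It read 52.4 and 55.8 CPM in FADU normoxia and 27.4 and 27.8 in hypoxia, and 185 and 186 CPM in BFTC909 normoxia and 101 and 94.0 in hypoxia. Every hypoxic library lay below every normoxic one of its line. Log2 fold changes were -0.95 (SE 0.0835, adjusted p = 0.000971 by limma) in FADU and -0.92 (SE 0.125, adjusted p = 0.00109 by limma) in BFTC909, and the difference between them was -0.02 with a 95% interval of -0.39 to 0.34.

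No other gene was called under hypoxia. Of the 7 genes tested in FADU, 1 was called higher and 1 lower, where 9.73% and 9.65% of 16324 genes were called, and of the 6 tested in BFTC909, 0 were called higher and 2 lower, where 17.9% and 18.3% of 14869 genes were called. At an unadjusted p under 0.05 the count of genes called higher in BFTC909 by limma was 1, as in the fit without the 4 libraries, both being MT1X, and with edgeR on whole reads it stayed at 0. MT1X went from 2.78 and 2.37 to 3.77 and 3.97 CPM in FADU (log2 fold change 0.45, SE 0.142, adjusted p = 0.0623) and from 0.627 and 0.378 to 0.915 and 1.24 CPM in BFTC909 (0.47, SE 0.178, adjusted p = 0.0654). Its groups did not overlap in either line, but the test by limma did not pass. It passed without the 4 libraries (0.53 in FADU and 0.47 in BFTC909) and without either library labelled METTL4-si of the line. MT1E stood at 46.6 and 41.2 CPM in FADU normoxia and 36.5 and 28.7 in hypoxia (-0.43, SE 0.156, adjusted p = 0.091, and called without either library labelled METTL4-si), and at 23.7 and 22.8 against 21.2 and 21.2 in BFTC909 (-0.13, SE 0.0874, adjusted p = 0.266). MTF1, the factor itself, ranged from 40.8 to 47.7 CPM in these FADU libraries and from 31.5 to 38.5 in BFTC909, where its change of -0.25 had an adjusted p of 0.0484 but stayed under 1.3-fold. SLC39A10 ranged from 55.9 to 58.7 CPM in FADU, with a change of -0.02 and a 95% interval of -0.22 to 0.17. MT1F and MT1M stayed at or below 1.55 CPM and were not tested in BFTC909, where MT1M read 0.448 and 0.503 CPM in normoxia and 0.915 and 1.00 in hypoxia. At such low values the log2(CPM + 1) scale hides large ratios: without the pseudocount the ratio of hypoxic to normoxic means was 1.82 for MT1F in FADU (adjusted p = 0.457 by limma) and 2.15 for MT1X in BFTC909.

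In the libraries labelled METTL4-si of hypoxic FADU, 3 of the 4 metallothioneins tested (MT2A, MT1E and MT1X) were lower and SLC30A1 was higher than with Scr-si. MT2A was 60.0 and 43.5 CPM against 172 and 152, a log2 fold change of -1.64 (SE 0.163, adjusted p = 0.000863 by limma). Both values were also below the 111 and 91.9 CPM of normoxia (-0.97, SE 0.163, adjusted p = 0.00792 by limma), a call that was lost without normoxia replicate 1 (adjusted p = 0.0636 by limma). MT1E was 13.4 and 17.0 CPM against 36.5 and 28.7, a log2 fold change of -1.05 (SE 0.156, adjusted p = 0.00344 by limma). It too lay below normoxia, by -1.48 (adjusted p = 0.00239 by limma). MT1X was 1.99 and 2.45 CPM against 3.77 and 3.97 (-0.60, SE 0.142, adjusted p = 0.0187 by limma), which was lost without either Scr-si hypoxia library (highest adjusted p 0.116). SLC30A1 rose to 45.7 and 51.1 CPM from 27.4 and 27.8 (0.79, SE 0.0835, adjusted p = 0.00109 by limma), and against normoxia it differed by -0.16 with a 95% interval of -0.36 to 0.04. So 3 of 7 genes tested were called lower and 1 higher, where 15.3% and 12.5% of all genes were. Both comparisons in FADU use the same Scr-si hypoxia libraries, so a change in one direction under hypoxia and in the other with METTL4-si is not independent evidence. Against normoxia, 2 of the 7 were called lower and 0 higher (0 at an unadjusted p and 0 by edgeR), where 13.5% and 8.13% of all genes were. Without METTL4-si replicate 2, MT1F was called higher (0.81).

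Without the 2 FADU libraries whose breast luminal markers were raised, the changes with METTL4-si were -1.87 for MT2A, -0.89 for MT1E, -0.50 for MT1X and 0.87 for SLC30A1, and all 4 stayed called. Of the remaining genes, MT1F spread from 0.578 to 1.79 CPM in the libraries labelled METTL4-si and from 0.629 to 1.55 with Scr-si (0.04, adjusted p = 0.929 by limma). MTF1 was 37.5 and 37.02 CPM against 41.8 and 40.8 (-0.15, adjusted p = 0.139 by limma), and SLC39A10 was 62.3 and 70.5 against 55.9 and 58.6 (0.21, adjusted p = 0.0893 by limma).

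In BFTC909, MT1E was lower as well, and no other of the genes passed. MT1E was 13.0 and 12.2 CPM in the libraries labelled METTL4-si against 21.2 and 21.2 with Scr-si in hypoxia (-0.70, SE 0.0874, adjusted p = 0.00128 by limma). MT2A was 71.0 and 94.9 CPM against 66.9 and 71.5 (0.24, SE 0.126, adjusted p = 0.179 by limma), and the groups overlapped. SLC30A1 was 91.3 and 68.4 CPM against 101 and 94.0 (-0.30, SE 0.125, adjusted p = 0.11 by limma). In both genes the second METTL4-si library, the one with raised simple epithelial markers, lay farther from Scr-si than the first. Without the first METTL4-si library MT2A was called higher (0.45) and SLC30A1 lower (-0.50), and without the second the differences were 0.04 and -0.09. Of 6 genes tested, 1 was called lower and 0 higher (0 at an unadjusted p and 0 by edgeR), where 11.7% and 13.2% of all genes were. Against normoxia, MT1E (-0.83), MT2A (-0.79), MTF1 (-0.44) and SLC30A1 (-1.22) were called lower in the libraries labelled METTL4-si, 4 of 6 genes where 23.2% of all genes were, and 0 were called higher (0 at an unadjusted p and 0 by edgeR), where 24.4% were. Without the first METTL4-si library MTF1 (-0.35) was under 1.3-fold, while MT1X (0.53) was called higher and SLC39A10 (-0.53) lower.

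The difference between the lines in the change with METTL4-si was -1.89 for MT2A (SE 0.233, adjusted p = 0.000547 by limma) and 1.09 for SLC30A1 (SE 0.165, adjusted p = 0.00144 by limma). Of 6 genes tested, 1 was called in each direction, where 14.4% of genes were called lower in FADU than in BFTC909 and 9.12% higher. MT1E did not pass for this difference (-0.35, 95% interval -0.77 to 0.07). Both calls held with any 1 of the 12 libraries left out.

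**Figure D3:**
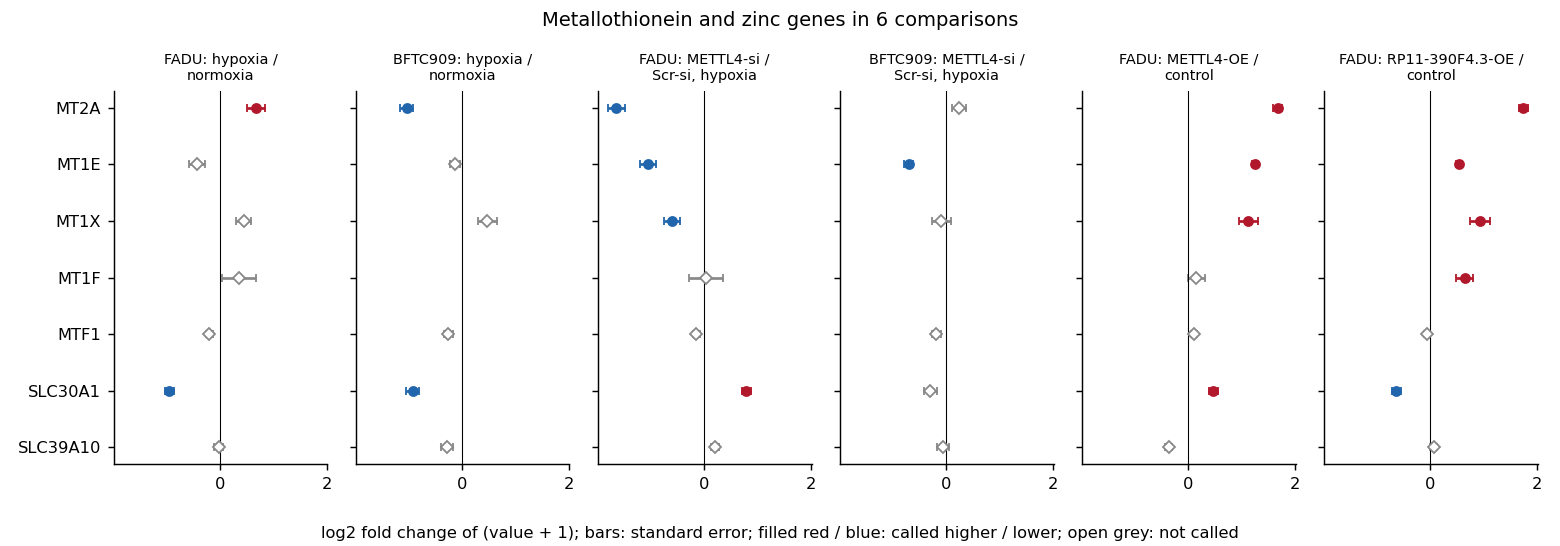
Log2 fold changes of (CPM + 1) with their standard errors for 7 genes in 6 comparisons; filled red and blue points were called higher and lower by limma, and open grey diamonds were not called. MT2A is red in FADU hypoxia (0.68) and both overexpression panels (1.67 and 1.74) and blue in BFTC909 hypoxia (-1.04) and FADU METTL4-si (-1.64).

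In METTL4-OE, 3 of the 4 metallothioneins tested (MT2A, MT1E and MT1X) were higher than with the control vector in normoxic FADU cells. MT2A was 245 and 193 CPM in METTL4-OE against 70.8 and 64.3 with the control vector, a log2 fold change of 1.67 (SE 0.088, adjusted p = 5.57e-09 by limma). MT1E was 76.8 and 79.8 CPM against 33.5 and 31.5 (1.24, SE 0.0576, adjusted p = 1.75e-09 by limma). MT1X was 3.63 and 5.12 CPM against 1.48 and 1.40 (1.13, SE 0.182, adjusted p = 0.000259 by limma). None of these groups overlapped. MT1F, at 1.24 and 0.816 CPM against 0.906 and 0.744, did overlap (0.15, adjusted p = 0.502 by limma). SLC30A1 rose less, to 58.0 and 59.3 CPM from 47.3 and 37.7 (0.47, SE 0.0839, adjusted p = 0.000608 by limma), and without the second control library its rise of 0.31 was under 1.3-fold. The importer SLC39A10 was 43.7 and 43.0 CPM against 60.1 and 52.2 (-0.36, adjusted p = 0.000571 by limma), a difference just under 1.3-fold on this scale that edgeR called. In all, 4 of 7 genes were called higher and 0 lower (0 at an unadjusted p, 1 by edgeR), where 8% and 10.5% of 15644 genes were.

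RP11-390F4.3-OE cells had as much MT2A as METTL4-OE cells within the spread but less SLC30A1 than either other group. MT2A was 216 and 242 CPM, 1.74 above the control vector (SE 0.088, adjusted p = 2.54e-09 by limma), and the difference from METTL4-OE was 0.07 with a 95% interval of -0.12 to 0.26. MT1E was 49.0 and 46.7 CPM (0.54 above control, adjusted p = 3.92e-06 by limma), which was lower than in METTL4-OE by -0.70 (SE 0.0576, adjusted p = 3.09e-07 by limma). MT1X was 4.59 and 2.87 CPM (0.93 above control, adjusted p = 0.000767 by limma). MT1F, at 1.85 and 1.84 CPM against 0.906 and 0.744, was also called higher (0.64, SE 0.158, adjusted p = 0.00398 by limma). SLC30A1 fell to 27.2 and 26.2 CPM (-0.64 from control, SE 0.0839, adjusted p = 2.64e-05 by limma), and its difference from METTL4-OE was -1.11 (adjusted p = 1.35e-07 by limma). MTF1 was 44.1 and 44.8 CPM and SLC39A10 59.0 and 58.2 CPM, against 45.2 and 47.6 and against 60.1 and 52.2 in the control. Thus 4 of 7 genes were called higher and 1 lower than control, where 16.5% and 12.5% of all genes were. Both overexpression lines were compared with the same 2 control libraries. Set directly against METTL4-OE, 2 genes were called higher in RP11-390F4.3-OE (MT1F and SLC39A10) and 2 lower (MT1E and SLC30A1), where 18.4% and 13.3% of all genes were. MT1F lost this call without either RP11-390F4.3-OE library or without METTL4-OE replicate 2 (highest adjusted p 0.16). Without RP11-390F4.3-OE replicate 2, whose markers of other cells were raised, MT2A was still 1.66 above control.

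In the mutant table, with 1 library a line, there was no replicate check and no test. CA9 stood at 29.8 CPM with the CRISPR control, 10.4 in clone 1 and 15.2 in clone 2. MT2A was 83.0 CPM in the CRISPR control, 77.0 in METTL4-DPPW-mut clone 1 and 89.1 in clone 2, so the clones lay on both sides of the control. MT1E was 33.6, 41.2 and 39.5 CPM in the same order, and SLC30A1 was 17.4, 22.3 and 16.6. The log2 ratios of (CPM + 1) of these 3 genes were between -0.11 and 0.34. MTF1 was 22.5, 30.5 and 21.1 CPM, higher in clone 1 by 0.42, and MT1F was 1.58, 1.43 and 1.56 CPM. MT1X, at 4.095, 1.82 and 2.49 CPM (135, 61 and 78 reads), and SLC39A10, at 28.4, 17.7 and 21.4 CPM, were at least 1.3-fold lower in both clones. For MT1X the log2 ratios without a pseudocount were -1.17 (95% exact binomial interval -1.63 to -0.73) and -0.72 (-1.14 to -0.31), and for SLC39A10 they were -0.68 (-0.83 to -0.53) and -0.41 (-0.56 to -0.27). The intervals cover counting error only. Of 7 genes, 2 were lower and 0 higher by this measure, where 11.8% and 8.94% of 15719 genes were.

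**Figure D4:**
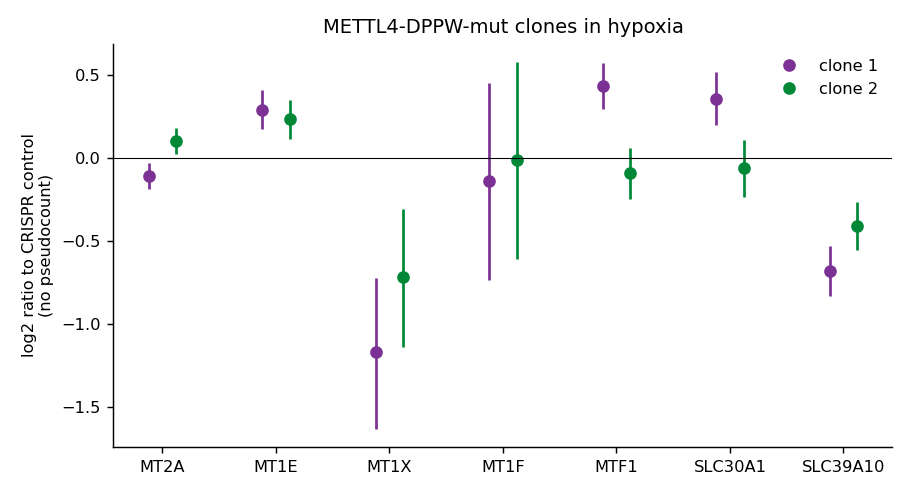
Log2 ratios of each METTL4-DPPW-mut clone to the CRISPR control in hypoxic FADU cells, without a pseudocount, for 7 genes; bars are 95% exact binomial intervals, which cover counting error only. MT1X (-1.17 and -0.72) and SLC39A10 (-0.68 and -0.41) lie below 0 in both clones, and MT2A lies on both sides of 0 (-0.11 and 0.10).

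Among the other zinc importers, SLC39A14 moved in opposite directions in the lines, down under hypoxia and up with METTL4-si in FADU and the reverse in BFTC909. Both comparisons in a line use its Scr-si hypoxia libraries. Of 10 other importers tested in FADU, 2 fell and 0 rose under hypoxia, where 9.65% and 9.73% of all genes did (median log2 fold change -0.28, against -0.03 over all genes), and 4 rose and 0 fell with METTL4-si, where 12.5% and 15.3% did (median 0.24, against 0.02). In BFTC909 2 of 10 rose under hypoxia, near the 17.9% of all genes, and 0 fell, where 18.3% did (median 0.09, against -0.02), and with METTL4-si 1 rose and 3 fell, where 13.2% and 11.7% did (median -0.18, against 0.01). The counts of 0 by limma stayed at 0 at an unadjusted p. SLC39A14, which also carries iron, averaged 166 CPM in FADU normoxia and 112 in hypoxia (-0.56, SE 0.0741, adjusted p = 0.00378 by limma), while in BFTC909 it rose from 300.3 to 411 CPM (0.45, adjusted p = 0.00401 by limma). The difference between lines was -1.01 (adjusted p = 0.000317 by limma) for hypoxia and 1.00 (adjusted p = 0.000352 by limma) for METTL4-si. SLC39A7, which releases zinc from the endoplasmic reticulum, differed between lines by 0.88 (adjusted p = 0.000109 by limma) for METTL4-si. SLC39A3 averaged 10.2 CPM in FADU normoxia and 6.09 in hypoxia (-0.66, adjusted p = 0.00799 by limma). SLC39A11 moved the same way with METTL4-si in both lines, by 0.76 in FADU (19.4 to 33.6 CPM) and 0.54 in BFTC909 (27.9 to 41.1 CPM), and was lower in METTL4-OE than in its control (-0.49). SLC39A1 fell in BFTC909 with METTL4-si, from 93.0 to 64.5 CPM (-0.53). In RP11-390F4.3-OE, SLC39A13 (0.59) and SLC39A4 (0.53) rose, 2 of 10 importers where 16.5% of all genes did, and 2 fell where 12.5% did (SLC39A14, -0.42, and SLC39A9, -0.38, the latter named after its values were seen).

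**Figure D5:**
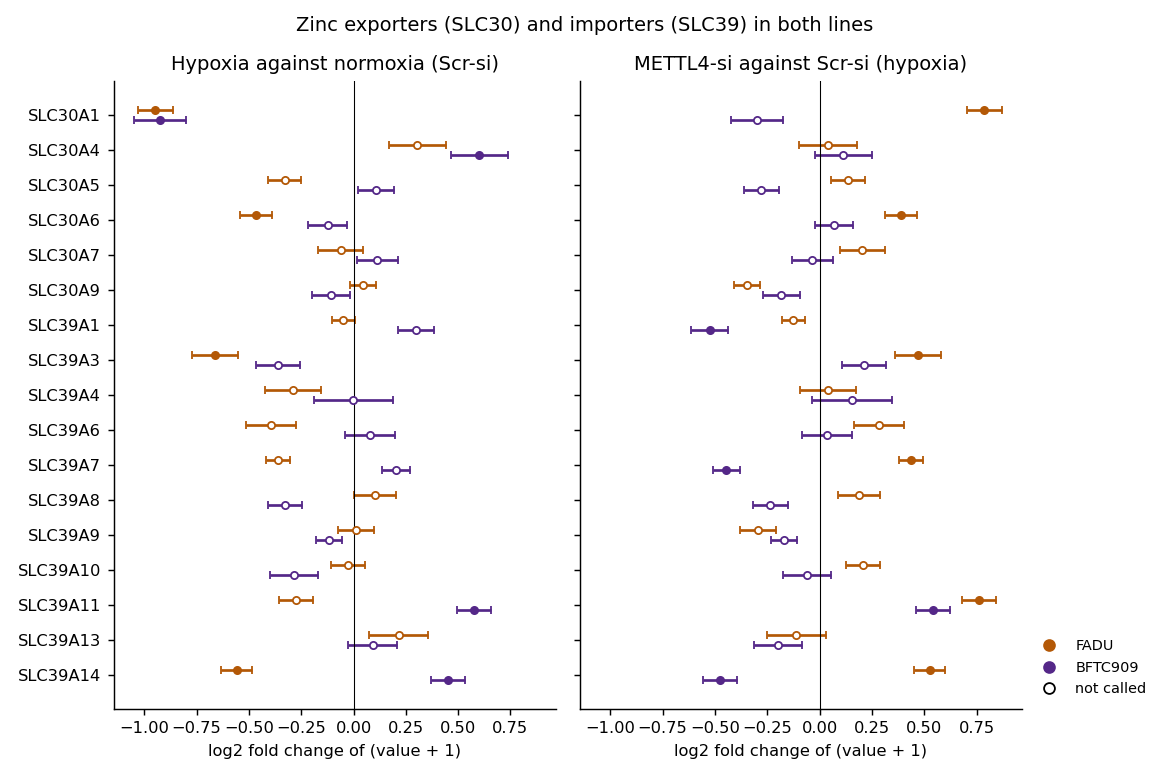
Log2 fold changes of (CPM + 1) with standard errors for 17 SLC30 and SLC39 genes tested in both lines, for hypoxia against normoxia on the left and METTL4-si against Scr-si on the right; filled points were called by limma. SLC30A1 lies near -0.95 and -0.92 on the left in both lines, and SLC39A14 changes side between lines in both panels.

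Of the 5 other zinc exporters tested, SLC30A4 rose in hypoxic BFTC909 (11.1 to 17.4 CPM, log2 fold change 0.60, adjusted p = 0.00968 by limma), 1 of 5 where 17.9% of all genes rose. SLC30A6, an exporter into the Golgi, fell in hypoxic FADU (-0.47, adjusted p = 0.00796 by limma), 1 of 5 where 9.65% of all genes fell, and was the 1 of 5 that rose with METTL4-si (0.39, adjusted p = 0.00972 by limma), where 12.5% rose. SLC30A6 was lower in RP11-390F4.3-OE than in control (43.9 against 66.5 CPM, -0.59, adjusted p = 2.49e-06 by limma), as 1 other exporter was (SLC30A7, -0.42, named after its values were seen), 2 of 5 where 12.5% of all genes were. In METTL4-OE 0 of 5 were called by limma, against 8% of all genes higher and 10.5% lower, and 2 had an unadjusted p under 0.05 but a change under 1.3-fold. The other lists were not run with edgeR.

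Metallothioneins also bind copper, and of 10 copper-handling genes a few were called in most comparisons. ATP7A, a copper pump, went from 15.7 to 32.6 CPM under hypoxia in BFTC909 (1.01, SE 0.1, adjusted p = 0.0003 by limma) and changed by -0.12 in FADU, a difference of -1.13 between lines (adjusted p = 0.000342 by limma). CCS, which loads copper into superoxide dismutase, rose there too (4.08 to 7.43 CPM, 0.73). The related pump ATP7B was higher with METTL4-si in both lines, 16.8 against 9.48 CPM in FADU (0.76) and 12.3 against 5.59 CPM in BFTC909 (1.02). STEAP3, a metal reductase, fell under hypoxia in FADU from 23.5 to 13.4 CPM (-0.77) and rose with METTL4-si to 30.8 CPM (1.15). Its change differed between lines by -1.02 for hypoxia and 0.67 for METTL4-si (adjusted p = 0.000238 and 0.0019 by limma). METTL4-OE cells had less ATP7A (14.7 against 25.6 CPM, -0.76) and STEAP3 (15.1 against 21.1 CPM, -0.46) than the control. Of these 10 genes, 1 rose and 1 fell in FADU hypoxia (9.73% and 9.65% of all genes), and 2 rose in BFTC909 hypoxia (17.9%). With METTL4-si 2 rose in each line (12.5% in FADU and 13.2% in BFTC909), and 2 fell in METTL4-OE (10.5%). In RP11-390F4.3-OE 0 were called by limma, where 16.5% of all genes were called higher and 12.5% lower. There 6 had an unadjusted p under 0.05 but a change under 1.3-fold. In both mutant clones ATP7A, ATP7B and STEAP3 were at least 1.3-fold lower than in the control, 3 of 10 copper-handling genes where 11.8% of all genes were. SLC39A4 and SLC39A6, named after their values were seen, were at least 1.3-fold higher, 2 of 10 other importers where 8.94% of all genes were. Of the 5 other exporters, 0 were higher and 0 lower by this measure.

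Across the 18 libraries of the 3 replicated tables, each centred on its table mean, some metallothioneins tracked each other and others did not. Pearson's r of MT2A was 0.68 with MT1E, 0.60 with MT1X, 0.17 with MT1F and -0.06 with SLC30A1. MT1E had 0.48 with MT1X and -0.31 with MT1F, and MT1X had 0.36 with MT1F. MTF1 had 0.75 with MT1E, 0.63 with SLC30A1, 0.45 with MT2A, -0.06 with MT1X and -0.43 with MT1F. Among 9674 genes with a mean of at least 5 CPM in each table, those most like MT2A were MYL12A (0.95), SH3BGRL3 (0.93) and RELA (0.93), and those most like SLC30A1 were ENC1 (0.97), PDCD11 (0.97) and MCM8 (0.96). MT1E was most like MED8 (0.95), KAT5 (0.92) and MIX23 (0.92), MT1X most like MYH9 (0.90), MT1F most like ZNRF1 (0.88), SLC39A10 most like DMD (0.89) and MTF1 most like the gene with identifier ENSG00000196374 (0.97). The libraries share groups, depth and scaling, and the values are descriptions.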

How the data were processed

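RNA was measured in 21 libraries prepared with the Kapa HyperPrep kit after ribosomal RNA depletion and sequenced as pairs of 150-base reads on an Illumina NextSeq. Per the study's methods and the submitters' processing notes, reads went through Trim Galore, HISAT2 (genome hg19), HTSeq and the TMM scaling of edgeR. Versions, annotation and strand setting are not given in the sources used here. What the authors deposited is a scaled signal (CPM after TMM) in 4 tables of 19505 (FADU), 17232 (BFTC909), 18316 (overexpression) and 15719 (mutant) genes. The lowest value in the mutant table equals 10 reads, and 40.9% to 43.0% of the total in its columns stood in rows that name no single gene and were left out. Symbols came from GENCODE v44 lifted to GRCh37, which held 18887, 16721, 17763 and 15308 of the identifiers. Within 0.1 of a read, 100% of values were whole multiples of the value of 1 read, which gave the depth and the reads for edgeR.

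Testing was limited to the 16324, 14869 and 15644 genes that reached 1 CPM in 2 or more libraries, by limma 3.58.1 (eBayes with trend) on log2(value + 1), with the 3 groups of a table sharing the spread. Differences between lines were interactions over both knockdown tables. Calls needed an adjusted p under 0.05 and 1.3-fold. The scripts were tested on simulated data. Genes and lists were chosen with earlier results of these data known. The named genes were the 9 genes above and, from the lists of other transporters and copper genes, up to 3 called genes with a mean of at least 5 and the largest change in a comparison. The alternatives were pseudocounts of 0.1 and 5, other filters, no trend, median centring, edgeR 4.0.16 on whole reads, unadjusted p-values, only the groups compared, a replicate block, single clones and each library left out. A fit without the 4 libraries with raised markers of other cells was added after seeing the data. R 4.3.3 and Python 3.11.15 (numpy 2.4.6, pandas 2.3.3, scipy 1.17.1, matplotlib 3.10.9) were used.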

Additional observations from a re-analysis of the deposited data

Results flagged for a closer look

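In 9 cases a change differed between FADU and BFTC909 by the test of the interaction in limma. For hypoxia these were MT2A (1.71), ATP7A (-1.13), STEAP3 (-1.02) and SLC39A14 (-1.01), each as the log2 change in FADU minus that in BFTC909. For METTL4-si they were MT2A (-1.89), SLC30A1 (1.09), SLC39A14 (1.00), SLC39A7 (0.88) and STEAP3 (0.67). Both contrasts use the Scr-si hypoxia libraries of each line, so a gene that stands in both lists with opposite signs is not 2 independent observations. These 9 cases are not the full set. In all, the hypoxia difference was called for 5 of 10 copper-handling genes, 4 of 10 other importers and 1 of 5 other exporters. For METTL4-si the counts were 2, 4 and 1. Of all 13595 genes, 12.8% were called higher in FADU and 11% lower for hypoxia, and 9.12% and 14.4% for METTL4-si.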

How the results depend on the processing

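No result of the genes described changed direction past the threshold under any alternative run. Apart from unadjusted p-values, genes of the other lists were not followed under the alternatives. The values that changed were counts of the 7 (6 in BFTC909) genes tested. In FADU hypoxia 2 instead of 1 were called higher without the trend, with unadjusted p-values, with only the groups compared and without the 4 libraries with raised markers, and 2 instead of 1 lower with unadjusted p-values and with only the groups compared. In BFTC909 hypoxia 1 instead of 0 was called higher under these 4 settings and with median centring. With unadjusted p-values, 2 instead of 1 were lower in the difference between lines for METTL4-si. Of RP11-390F4.3-OE against METTL4-OE, 1 instead of 2 was called higher with a pseudocount of 5, a mean of at least 5, median centring or without the 4 libraries. Against the control vector, 2 instead of 4 were higher in RP11-390F4.3-OE with a mean of at least 5, since MT1X and MT1F were then not tested, and 1 instead of 0 was lower in METTL4-OE with edgeR. In the mutant clones, 0 genes (pseudocount of 5) or 1 gene (median centring) instead of 2 were lower, and 1 instead of 0 was higher in clone 1 alone.

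With 1 library left out, the counts ranged from 0 to 2 higher and 1 to 2 lower in FADU hypoxia, 2 to 3 lower with METTL4-si in FADU, 0 to 1 higher and 1 to 2 lower in METTL4-si against normoxia there, 0 to 1 higher in BFTC909 hypoxia, 0 to 1 higher and 1 to 2 lower with METTL4-si in BFTC909, 0 to 1 higher against normoxia there, 1 to 2 higher in the difference between lines for METTL4-si, 3 to 4 higher and 0 to 1 lower in METTL4-OE and 1 to 2 higher in RP11-390F4.3-OE against METTL4-OE. A group left with 1 library was assumed to vary like the others. Leaving out a library or a group also changes the estimate of the spread, and other causes were not tested.

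Apart from FADU normoxia and METTL4-si (0.648), replicate numbers did not pair the libraries (correlations of replicate differences from -0.0652 to 0.154). Replicate 1 of FADU normoxia and of FADU METTL4-si had raised breast luminal markers, and the part of these libraries in this correlation was not tested. With a replicate block 1 gene was called higher and 1 lower in FADU hypoxia, and no call of the genes described changed. With 2 libraries a group, the interval of a difference is wide, and the 4 to 52 reads of MT1F limit it to large changes.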
